A study of Mus musculus with 12 samples.

Results

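The measurements concern what 2 knockouts of one gene have in common. E12 and E47 are transcription factors made by alternative splicing of Tcf3, and all 12 libraries of the study, 6 knockout and 6 wild type, were fitted in 1 model with the line (E12 or E47) as a covariate, so that a gene stands out when it differs in the same direction in both lines. The cells were neural stem cells of C57BL/6J mice, taken at stage E14.5 and kept dividing with FGF-2 and EGF. The groups, with 3 libraries each, were E12KO (genotype E12-/-), E12wt (E12+/+, from litter mates of the E12-/- embryos), E47KO (E47-/-) and E47wt (E47+/+, from litter mates of the E47-/- embryos), none of them treated. The sources used here do not give how the alleles were made. Nor do they tell if replicates are different embryos or cultures, so p-values measure the spread between these libraries, which may be technical.

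E12 and E47 are E proteins, basic helix-loop-helix factors that pair with each other or with tissue-specific partners such as the proneural factors and bind short DNA motifs called E boxes. Id proteins hold E proteins in pairs that do not bind DNA, and the Hes factors downstream of Notch act against proneural pairs. In the developing brain this network is known for setting the balance between dividing stem cells and differentiating neurons, and Cdkn1c, an inhibitor of the cell cycle, is a known E-protein target.

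Between 34515297 and 56835783 reads lay on genes in each library, and 14137 autosomal genes passed the filter on low counts. The stem cell markers Nes and Sox2 were high in every library, at 1159 to 1687 and 203 to 266 depth-scaled read counts (CPM). Fabp7, Slc1a3 and Vim lay above 837 CPM, while Pax6 and Prom1 were lower, at 44.3 to 65.8 and 8.47 to 21.5 CPM. The defining markers of endothelium and microglia, Cldn5 and Cx3cr1, were at most 0.0245 and 0.0477 CPM. Pecam1 and Ptprc, also markers of such cells, reached 0.331 and 0.106 CPM. The listed endothelium genes, and the listed microglia and macrophage genes, each summed to at most 11.7 CPM in any library. E47KO replicate 2 lay far from the others on the first principal component (73.6, against −30.5 to 14.7 for the other libraries), and E12wt replicate 3 was apart on the second (50.5, against −25.4 to 20.1). Transcripts of 4 Y-linked genes summed to 195 to 251 CPM for E47wt replicate 2 and all E47KO libraries and to at most 0.404 CPM in the other 8 libraries, so knockout and Y-linked transcripts partly coincide in the E47 line. Xist, expressed in female cells, was at 876 and 1126 CPM for E47wt replicates 1 and 3 and at 0.830 CPM for replicate 2. The E47wt libraries thus did not all come from the same embryos.

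Both knockouts had less RNA of Tdg and more of a copy of it, Gm9855. Thymine DNA glycosylase, the product of Tdg, works in base excision repair and also removes oxidised forms of methylcytosine during DNA demethylation, and Gm9855 is annotated as a processed pseudogene, named Tdg-ps2 in RefSeq. Both lie on chromosome 10, as Tcf3 does. The 2 sequences are printed because the counts of these genes can only be told apart where they differ. Aligned over 1194 bases, the annotated Tdg and Gm9855 transcripts (GENCODE, GRCm38) were 99.25% identical with 9 mismatches and 0 gaps, and the longest identical stretch was 756 bases. The Tdg transcript is 2959 bases long and that of Gm9855 1194, so the rest of Tdg lies outside the alignment. Shown is the stretch of 120 bases of the Tdg coding sequence (positions 982 to 1101, counted from 1 at its first base) with the most mismatches, 5, each in capitals:
Tdg: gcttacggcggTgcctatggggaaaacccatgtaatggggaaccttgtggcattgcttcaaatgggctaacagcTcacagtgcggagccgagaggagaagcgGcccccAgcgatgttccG
Gm9855: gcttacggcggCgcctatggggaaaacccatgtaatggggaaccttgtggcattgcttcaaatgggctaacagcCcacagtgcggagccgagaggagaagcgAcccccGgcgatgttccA

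Tdg was at 182, 173 and 171 CPM for E12wt and at 58.8, 54.0 and 57.3 CPM for E12KO. In the E47 line it was at 185, 181 and 176 CPM for wild type and at 58.4, 47.3 and 54.9 CPM for knockout. Every knockout library thus had less than every wild-type library, in both lines and across them. The shared log2 fold change was −1.69 ± 0.06 (SE, edgeR quasi-likelihood test, 6 against 6, BH-adjusted p = 7.32e-09), with −1.63 ± 0.09 in the E12 line and −1.75 ± 0.09 in the E47 line. The difference between the lines was −0.12 (95% interval −0.38 to 0.14, edgeR, BH-adjusted p = 0.935).

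Gm9855 was close to absent in the wild types, at 0.481, 0.392 and 0.324 CPM for E12wt and 0.246, 0.710 and 0.362 CPM for E47wt. It was at 49.0, 46.6 and 49.3 CPM for E12KO and 48.7, 43.0 and 52.0 CPM for E47KO, from 5905 and 6527 reads against 52 and 59 in the wild types. All knockout libraries lay above all wild-type ones, and the shared log2 fold change was 6.82 ± 0.18 (edgeR, BH-adjusted p = 3.31e-10; 6.91 ± 0.27 in E12 and 6.73 ± 0.26 in E47). Over the aligned bases the sequences are near-identical, so the split of reads between the genes is uncertain there. Reads counted for neither gene are in no value here. Summed, Tdg and Gm9855 were at 176 ± 6.19 CPM for E12wt and 105 ± 3.87 CPM for E12KO (mean ± SD, n = 3), and at 181 ± 4.69 and 101 ± 9.68 CPM for E47wt and E47KO, so the sum was lower in every knockout library than in every wild-type one. Gm9855 made up 46.0% of that sum in E12KO and 47.3% in E47KO on average, against 0.226% and 0.243% in the wild types.

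A further 3 genes passed the test. Beside Tdg in the order of the annotation, on the opposite strand, lies 1190007I07Rik, which fell by 1.04 on the log2 scale (SE 0.14, edgeR, BH-adjusted p = 0.0194). It was at 3.57, 2.30 and 3.03 CPM for E12wt, 1.33 to 1.64 CPM for E12KO, 2.90, 3.59 and 2.87 CPM for E47wt and 1.41, 1.38 and 1.62 CPM for E47KO. The knockouts of both lines thus lay below the wild types, with fitted values of −0.99 ± 0.20 in E12 and −1.08 ± 0.20 in E47.

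2610203C22Rik, a long non-coding RNA gene on chromosome 1, rose. Its levels were 0.459, 0.514 and 0.416 CPM for E12wt against 1.69, 2.83 and 2.78 CPM for E12KO, and 0.465, 0.409 and 0.532 CPM for E47wt against 1.96, 0.800 and 1.87 CPM for E47KO. The groups did not overlap, although E47KO replicate 2 was well under the other knockout libraries. The shared log2 fold change was 2.06 ± 0.25 (edgeR, BH-adjusted p = 0.0113; 2.39 ± 0.35 in E12 and 1.72 ± 0.35 in E47), and it rests on 60 and 61 reads in the wild types and 298 and 216 in the knockouts.

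Syndig1l, on chromosome 12, is a relative of Syndig1, a synaptic protein that binds AMPA receptors, and it fell. It was at 1.60, 1.20 and 1.57 CPM for E12wt and 0.847, 0.475 and 0.618 CPM for E12KO, and at 1.15, 1.14 and 1.51 CPM for E47wt and 0.549, 0.552 and 0.480 CPM for E47KO. No knockout library reached a wild-type one, and the shared log2 fold change was −1.22 ± 0.17 (edgeR, BH-adjusted p = 0.0326; −1.17 ± 0.26 in E12 and −1.27 ± 0.26 in E47).

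**Figure D1:**
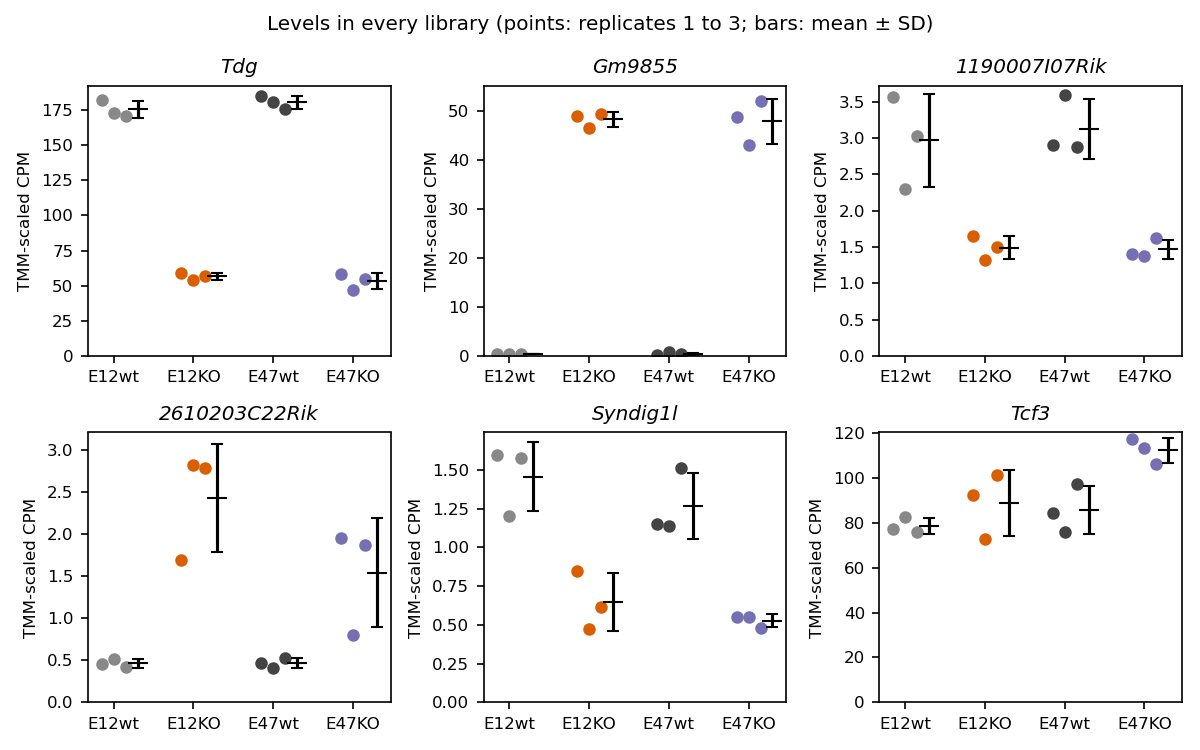
TMM-scaled CPM (y axis) of the 5 genes called in the shared model and of Tcf3 in each library, by group (x axis), with points for replicates 1 to 3 and a bar for mean ± SD. In the first 5 panels the knockout libraries of both lines lie on one side of the wild types; in the Tcf3 panel knockout and wild type overlap in the E12 line.

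These were the 5 genes called at an adjusted p under 0.05, which is 0.0354% of the genes tested, 2 higher and 3 lower. The shared model can call a gene that moves in 1 line, but for all 5 the fitted effects had the same sign in both lines and the groups did not overlap inside either. For the effect of each line, taken from a fit of all 12 libraries, only Tdg and Gm9855 were called (0.0141% of the genes in each). The other 3 were called for neither line in that fit. In the shared model the next adjusted p (edgeR) was 0.0868. DESeq2 called 50 genes, these 5 among them, with 8 higher and 42 lower. Counts of calls also varied with the libraries: 2 genes, Tdg and Gm9855, were called without E12wt replicate 1, without E12wt replicate 3 or without E47wt replicate 2, 3 genes without E12KO replicate 2, E12KO replicate 3, E47wt replicate 1, E47wt replicate 3 or E47KO replicate 3, and 7 without E47KO replicate 2. Tdg and Gm9855 were called in all 24 alternatives, 2610203C22Rik in 19 of 24, 1190007I07Rik in 11 of 24 and Syndig1l in 9 of the 23 that tested it, and the 5 genes kept their direction in each. With the presence of Y-linked transcripts as a covariate, 4 genes were called, 3 of the 5 and Lynx1. Without E47wt replicates 1 and 3, so that each E47 library left has Y-linked transcripts, Tdg and Gm9855 alone were called.

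In the authors' deposited tables, which compare each line by itself, 62 genes had an adjusted p under 0.05 in E12 and 10 in E47, and 2 of the 12076 genes listed for both lines passed in both. These were Tdg (log2 fold changes of −1.64 and −1.75 in the authors' deposited tables) and Gm9855 (6.92 and 6.76 there). For 1190007I07Rik the authors' deposited tables give an adjusted p of 0.0586 in E12 and 0.0426 in E47.

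The targeted gene itself stayed expressed. Tcf3 was at 77.1, 82.4 and 75.9 CPM for E12wt and 92.1, 72.9 and 101 CPM for E12KO, and at 84.2, 75.9 and 97.2 CPM for E47wt and 117, 113 and 106 CPM for E47KO. The knockouts overlapped the wild type in the E12 line and lay above it in the E47 line. Reads of either splice form count towards Tcf3, so its level is no check of the genotypes. The shared log2 fold change was 0.28 ± 0.09 (edgeR, BH-adjusted p = 0.707) and did not pass.

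The other E-protein genes differed less. Tcf4, another E-protein gene, was between 488 and 607 CPM over all libraries, with a shared log2 fold change of 0.02 ± 0.07, which was −0.01 without E47KO replicate 2. Tcf12, the remaining E-protein gene, was between 665 and 789 CPM, at −0.04 ± 0.06. Of the Id genes, whose products sequester E proteins, none was called: Id2 was at −0.34 ± 0.23 (−0.55 without E47KO replicate 2) and Id3 at 0.32 ± 0.31 on the log2 scale, the latter at 0.12 without E47KO replicate 2 and −0.05 without E12wt replicate 3 and E47KO replicate 2. Cdkn1c was at 7.52, 7.93 and 9.51 CPM for E12wt and 5.51, 5.60 and 4.80 CPM for E12KO, but at 6.38, 8.37 and 4.02 CPM for E47wt and 7.45, 15.8 and 3.93 CPM for E47KO. Only the E12 knockouts lay apart from their wild types, and E47KO replicate 2 held the highest level of all. Its shared value was −0.06 ± 0.32 (edgeR, BH-adjusted p = 0.979), with −0.65 ± 0.40 in E12 and 0.53 ± 0.40 in E47, a difference of 1.18 (95% interval −0.07 to 2.43); its sign turned positive (0.01 to 0.07) without any one of E12wt replicate 3, the E12KO replicates or E47KO replicate 3, and without E47KO replicate 2 the value was −0.41. Of the other inhibitors of the cell cycle, Cdkn1a was at 0.06 ± 0.16, and at −0.02 without E12wt replicate 3, and Cdkn1b was at 0.04 ± 0.09, and at −0.03 without E47KO replicate 2.

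The position of the called genes relative to Tcf3, the targeted gene, was examined next. In the order of the annotation Tdg and 1190007I07Rik lie 88 and 87 genes from Tcf3, and Gm9855 lies 421 genes away on the other side. Whether sequence around the targeted allele differs between knockout and wild type cannot be seen from counts and was not tested. The values here do not separate such a difference from the loss of E12 or E47. Among the 100 genes on either side of Tcf3, 129 were tested and 2 were called, namely Tdg and 1190007I07Rik. A further view of these neighbours is the unadjusted p under 0.05 (edgeR), reached by 8 higher and 4 lower neighbours, 9.30% in both directions together. Over all 14137 genes it was reached by 834 in both directions together, 391 higher (2.77%) and 443 lower (3.13%). Of the 129, 82 lay above 0, with a median shared log2 fold change of 0.07, against 0.00 over all genes. Among the closest 50 on either side, 54 of 71 lay above 0 (median 0.11) and 0 were called by edgeR (6 at an unadjusted p under 0.05). Polr3b, a subunit of RNA polymerase III, lies 109 genes from Tcf3 on the side of Tdg and came closest to a call on this chromosome after the called genes. It was at 40.9, 40.7 and 40.7 CPM for E12wt against 50.2, 51.6 and 48.2 CPM for E12KO, and at 43.5, 41.0 and 41.6 CPM for E47wt against 47.7, 51.1 and 54.5 CPM for E47KO, which left no overlap in either line (0.29 ± 0.05, edgeR, BH-adjusted p = 0.160).

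**Figure D2:**
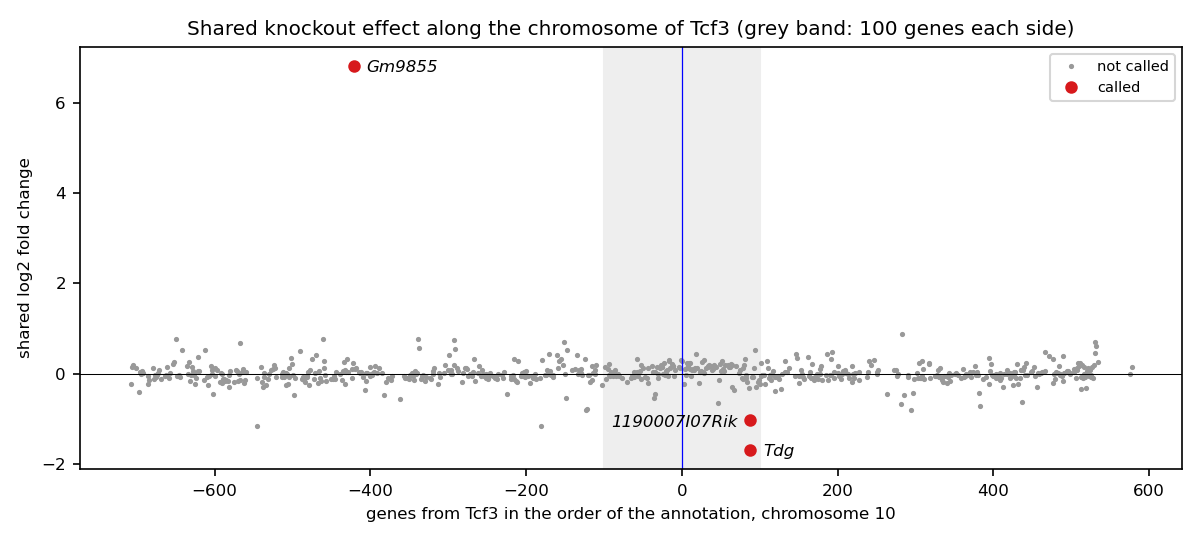
Shared log2 fold change (y axis) of the 688 genes tested on chromosome 10 by their place from Tcf3 in the order of the annotation (x axis, in genes); the blue line is Tcf3, the grey band the 100 genes on either side, and red points are called. Tdg and 1190007I07Rik lie together at the right edge of the band and Gm9855 lies 421 genes to the left.

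Matched by symbol in the RefSeq promoter table used here, which gives 250 bases before to 50 after the start and is not complete, 2 of the 5 called genes had an entry. Both are shown because E proteins bind E boxes, which are in capitals. The pattern of these boxes, CANNTG, reads the same on both strands, though a single box need not. The Tdg promoter (GRCm38.p6, chr10:82629588-82629887, plus strand) held 1 and that of 1190007I07Rik (chr10:82623179-82623478, minus strand) held 4:
Tdg: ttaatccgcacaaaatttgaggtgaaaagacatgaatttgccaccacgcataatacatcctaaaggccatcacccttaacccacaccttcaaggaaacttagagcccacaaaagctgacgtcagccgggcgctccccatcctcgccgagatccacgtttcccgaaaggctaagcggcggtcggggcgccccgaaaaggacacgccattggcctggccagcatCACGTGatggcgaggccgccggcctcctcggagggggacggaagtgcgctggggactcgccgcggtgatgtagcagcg
1190007I07Rik: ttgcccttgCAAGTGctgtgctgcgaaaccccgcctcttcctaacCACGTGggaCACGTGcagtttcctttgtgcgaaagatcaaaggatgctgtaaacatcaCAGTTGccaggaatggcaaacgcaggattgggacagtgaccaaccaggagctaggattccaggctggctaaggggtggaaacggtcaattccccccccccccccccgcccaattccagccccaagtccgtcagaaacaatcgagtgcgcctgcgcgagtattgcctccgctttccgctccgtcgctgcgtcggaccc
The Tdg box was CACGTG, and CACGTG also occurred 2 times in the other promoter; over 32851 promoters of this length, 7.15% held CACGTG and 72.31% held a CANNTG. The form CAGGTG, counted with its reverse complement CACCTG, was in neither of the 2, and in 20.21% of all promoters. Among the 53 matched genes that were lower without overlap in both lines, 20 of 70 promoters (28.57%) held CAGGTG. Among the 23 matched higher genes 11 of 37 did (29.73%). Any CANNTG was in 67.14% of the promoters of these lower genes and 62.16% of those of the higher ones, below the 72.31% of all promoters. The form CAGCTG was in 15.71% and 18.92%, against 16.3% of all promoters, and in neither promoter shown above. A match of letters is a description of the sequence only.

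Beyond the 5 genes, effects in one line said little about effects in the other over the whole transcriptome. Of the genes tested, 7313 (51.7%) had the same sign in both lines, and the effects correlated across genes at r = 0.10 (Spearman 0.04), where the genes share libraries and are not independent replicates. The test of the difference between the lines called 0 genes with edgeR, with 411 at an unadjusted p under 0.05, and 0 with DESeq2 too. At an unadjusted p under 0.05 in each line, 68 genes had the same sign, 56 of them lower and 12 higher, and 9 had opposite signs.

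**Figure D3:**
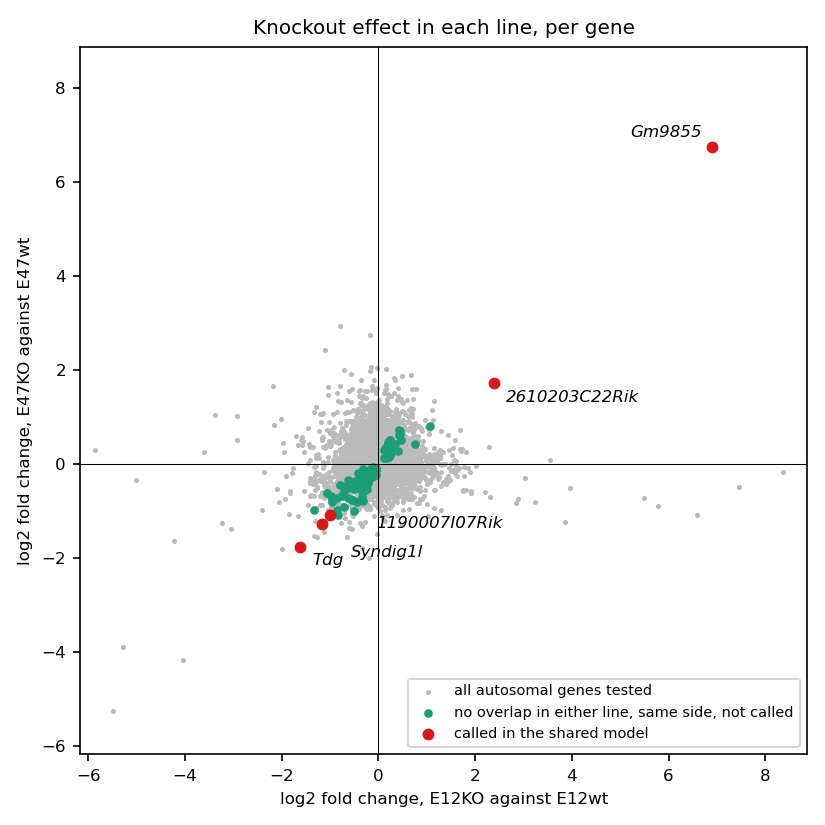
Log2 fold change of each autosomal gene tested in the E12 line (x axis) and in the E47 line (y axis); red points are called in the shared model, and green points are the other genes whose knockout and wild-type libraries do not overlap inside either line, on the same side. Gm9855 stands alone at the upper right, and most genes form a cloud around 0 with no slope that the eye can follow.

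Another description of likeness is no overlap of the 3 knockout and the 3 wild-type libraries inside each line, on the same side. This held for 31 higher genes (0.219% of those tested) and 80 lower genes (0.566%), while 32 genes had no overlap with opposite sides in the lines. Only 1190007I07Rik and Tdg were direct neighbours among these genes, and chromosome 10 held 11 of its 688 genes tested (1.60%), more than any other autosome. The counts depended on the libraries: without E12wt replicate 3 and E47KO replicate 2 together they were 205 and 214, in groups of which 2 then have 2 libraries. The genes below are the 10 on each side with the smallest p among those not called, given as values that did not pass the test.

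Among the lower ones, Adamts3, which encodes a protease that trims procollagen, came closest to a call. It was at 47.2, 46.6 and 49.3 CPM for E12wt and 31.2, 25.9 and 22.9 CPM for E12KO, and at 37.4, 37.8 and 28.8 CPM for E47wt and 23.3, 10.7 and 15.4 CPM for E47KO. The 2 wild types themselves differed, with every E47wt library below every E12wt library. Its shared log2 fold change was −0.96 ± 0.16 (edgeR, BH-adjusted p = 0.0906), and the adjusted p ran from 1.91e-05 to 0.656 over 24 alternatives, 4 of which called it.

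The kainate receptor gene Grik3 was at 46.6, 44.1 and 92.5 CPM for E12wt and 39.0, 27.9 and 27.7 CPM for E12KO. In the E47 line it was at 50.9, 44.2 and 58.2 CPM for wild type and 32.3, 31.0 and 24.8 CPM for knockout. E12wt replicate 3 was well above the other wild types, and no knockout library reached the lowest wild-type one (−0.88 ± 0.18, edgeR, BH-adjusted p = 0.219). Gabrb2, a subunit of the GABA-A receptor, was low throughout, between 1.14 and 2.89 CPM, at −0.78 ± 0.15. The synaptic adhesion gene Lrrtm4 lay between 1.87 and 4.83 CPM, at −0.66 ± 0.12.

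Sox6, a transcription factor of the SoxD group known for regulating neuronal and glial fate, was abundant. It was at 291, 303 and 311 CPM for E12wt against 266, 259 and 218 CPM for E12KO, and at 309, 277 and 282 CPM for E47wt against 204, 235 and 226 CPM for E47KO. All knockouts lay below all wild types by a small margin, −0.33 ± 0.06 on the log2 scale (edgeR, BH-adjusted p = 0.187). Pkia, an inhibitor of protein kinase A, was at −0.32 ± 0.06, Fip1l1, a factor of mRNA polyadenylation, at −0.30 ± 0.06, and the adhesion molecule Mcam at −0.51 ± 0.10. Scfd2 at −0.56 ± 0.11 and Gfod1 at −0.47 ± 0.09 complete the 10.

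Of the higher genes, Lynx1, whose product sits on the membrane and damps nicotinic acetylcholine receptors, had the smallest p. It was at 15.2, 13.9 and 12.3 CPM for E12wt and 22.8, 22.5 and 24.5 CPM for E12KO, and at 23.2, 18.9 and 22.9 CPM for E47wt and 26.1, 29.4 and 31.3 CPM for E47KO. The E47 wild types were already near the level of the E12 knockouts, so the separation held inside each line but not across them (0.59 ± 0.09, edgeR, BH-adjusted p = 0.0868; from 4.40e-06 to 0.690 over 24 alternatives).

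Ccdc136, which encodes a coiled-coil protein, was at 34.9, 30.6 and 24.7 CPM for E12wt and 46.0, 40.5 and 38.4 CPM for E12KO, and at 39.1, 39.3 and 40.3 CPM for E47wt and 56.5, 58.6 and 54.3 CPM for E47KO. Its effects in the lines lay close together, 0.47 ± 0.12 and 0.51 ± 0.12, with a difference of 0.04 (95% interval −0.32 to 0.41), and the shared value was 0.49 ± 0.08 (edgeR, BH-adjusted p = 0.0877). Gas1, a co-receptor for Sonic hedgehog, was at 0.27 ± 0.07, and Hes6, a relative of the Notch targets that acts against Hes1, at 0.33 ± 0.09. Lamb2, a laminin chain of basement membranes, was at 0.54 ± 0.14, with E47KO replicate 2 at 54.9 CPM and the other knockouts at 25.4 to 34.5 CPM. Rfx2, a factor of cilium formation, was at 0.53 ± 0.13, the homeobox gene Six5 at 0.57 ± 0.16, the NF-kappa-B subunit gene Nfkb2 at 0.34 ± 0.10 and Gse1 at 0.30 ± 0.07, none with an adjusted p below 0.366 (edgeR) in these 4.

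**Figure D4:**
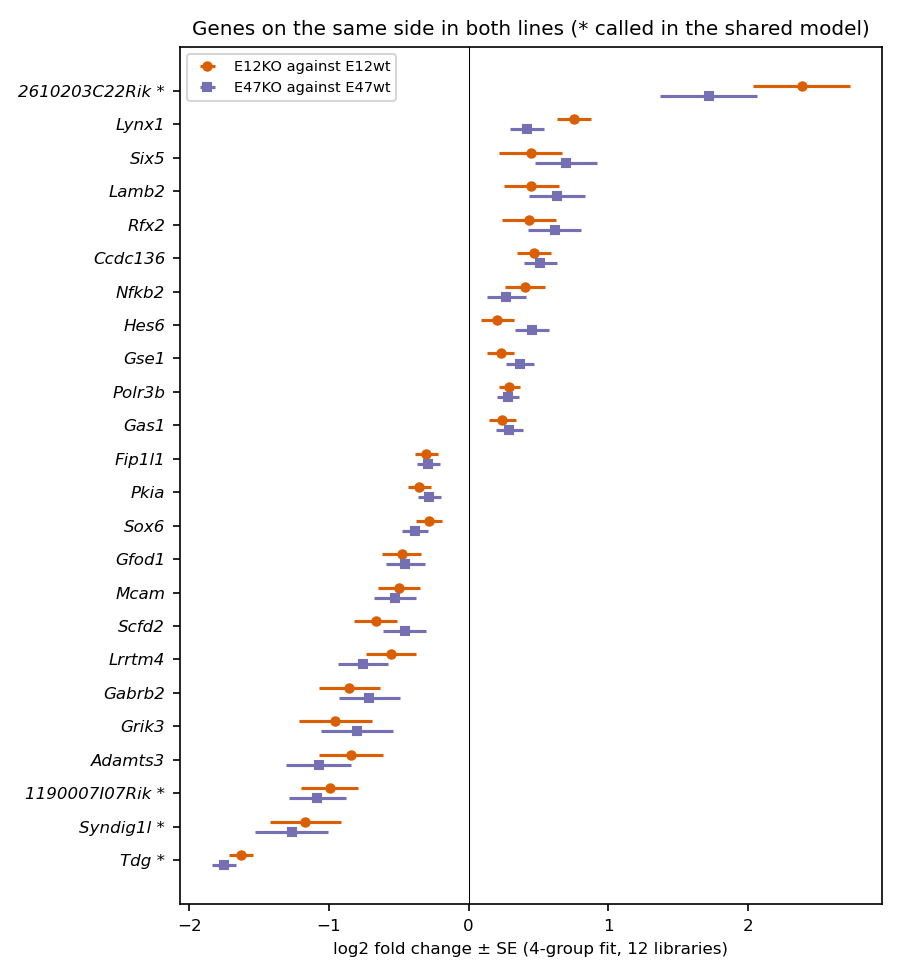
Log2 fold change ± SE in the E12 line (circles) and in the E47 line (squares) for the 4 called genes other than Gm9855 and the 20 genes on the same side in both lines with the smallest p among those not called. For each gene both points lie on the same side of 0, a direction that the choice of genes fixes.

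Other genes without overlap in either line, picked here after their values were seen, included genes of secreted signals and their receptors. Wnt5a, a ligand of non-canonical Wnt signalling, was at 0.29 ± 0.09, and Sfrp1, a secreted Wnt antagonist, at −0.30 ± 0.07. Gfra1, a co-receptor of the growth factor GDNF, was at −0.62 ± 0.13, with 23.5 to 34.5 CPM in the wild types and 14.1 to 23.3 CPM in the knockouts, and it was called in 3 of 24 alternatives. None of these 3 passed (edgeR, BH-adjusted p from 0.255 to 0.707).

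The pathways around E proteins were described by lists, with counts of members above and below 0 beside all genes, of which 7170 lay above and 6967 below 0. At an unadjusted edgeR p under 0.05, 2.77% of all genes were higher and 3.13% lower. Over the 33 lists, Tdg was the only member called. The list of base excision repair and DNA demethylation genes, to which Tdg belongs, had 9 of 24 above 0 and 15 below, with a median of −0.01. This balance turned with the libraries: 17 of 24 lay above 0 (median 0.05) without E47KO replicate 2, 15 (0.01) without E12wt replicate 3, 20 (0.06) without both, and 15 (0.02) with the Y-linked covariate. The nearest after Tdg was the scaffold protein gene Xrcc1, at 48.9 to 57.0 CPM in the E12 libraries and 49.3 to 65.8 CPM in the E47 libraries (0.15 ± 0.06, edgeR, BH-adjusted p = 0.833).

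Notch pathway genes lay above 0 in 15 of 19, with a median of 0.22, but 1 library weighed on this. Their summed level was 2961 CPM for E47KO replicate 2 and 1449 to 1816 CPM in the other 11 libraries. Hes5, a Notch target that holds cells as progenitors, was at 366, 365 and 393 CPM for E12wt, 426, 291 and 380 CPM for E12KO, 409, 357 and 359 CPM for E47wt and 496, 962 and 363 CPM for E47KO. E47KO replicate 2 was the highest and E47KO replicate 1, at 496 CPM, was next, with the remaining libraries at 291 to 426 CPM. Notch1, the receptor, was at 481 CPM for E47KO replicate 2 and at 202 to 250 CPM in the others. Without it, 10 of the 19 lay above 0 and the median was 0.07, and the shared values went from 0.33 to 0.08 for Hes5 and from 0.30 to 0.12 for Notch1. Lfng, a glycosyltransferase that tunes Notch and was chosen after its values were seen, was at 0.35 ± 0.14.

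The same library moved with the lists of dividing cells and of glia. S phase genes lay below 0 in 22 of 23 (median −0.11), and summed to 2098 CPM for E47KO replicate 2 against 3758 to 4850 CPM elsewhere; without that library 16 of 23 lay above 0 (median 0.03). Pcna, the DNA polymerase clamp, was at 239 CPM there and at 433 to 522 CPM in the others, with a shared value of −0.11 ± 0.14 that became 0.03 without it. Rrm1, a subunit of ribonucleotide reductase, was at −0.11 ± 0.09 (−0.01 without it), and 0 of the 23 genes had an unadjusted edgeR p under 0.05.

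Astrocyte genes lay above 0 in 16 of 17 (median 0.32), with a sum of 3084 CPM for E47KO replicate 2 and 1373 to 2058 CPM in the others. Without it 12 of 17 lay above 0 and the median was 0.06; without E12wt replicate 3 as well, 8 did and the median was −0.04. At an unadjusted edgeR p under 0.05, 4 of 17 were higher and 0 lower, where over all genes 2.77% were higher and 3.13% lower. Mlc1, an astrocyte membrane protein gene, was at 173 to 297 CPM for E12wt, 292 to 347 CPM for E12KO, 229 to 324 CPM for E47wt and 281 to 431 CPM for E47KO (0.32 ± 0.14), and Sparcl1, a matrix protein gene, was at 0.12 ± 0.20, or −0.07 without both libraries. The other 3 were chosen after their values were seen. Gja1, a gap junction gene, was at 0.57 ± 0.16. Gfap, the defining filament of astrocytes, stayed under 1 CPM in every library (0.274 to 0.947), and Agt, which encodes angiotensinogen, was at 1.12 ± 0.51, with 1.06 to 3.75 CPM outside E47KO replicate 2 and its highest level there, and it was at 0.32 without that library and 0.12 without E12wt replicate 3 as well.

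Stem cell genes were spread evenly, 10 of 19 above 0 with a median of 0.04. Fabp7, a fatty acid carrier of radial glia, was at 2676 to 3148 CPM for E12wt, 2501 to 2933 CPM for E12KO, 2690 to 3315 CPM for E47wt and 2599 to 2799 CPM for E47KO, overlapping in both lines (−0.16 ± 0.07). The receptor phosphatase Ptprz1 was at −0.10 ± 0.09. Hopx, a homeodomain factor of radial glia that was chosen after its values were seen, was at −0.33 ± 0.11.

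Neuron genes lay below 0 in 15 of 20, with a median of −0.19. It was −0.20 without E47KO replicate 2 (17 of 20 below) and −0.09 without E12wt replicate 3 (13 of 20 below). Their summed level overlapped in the E12 line, with 2058 to 2154 CPM in wild type and 1887 to 2073 CPM in knockout. In the E47 line it was lower in every knockout library, 1853 to 2052 CPM against 2055 to 2246 CPM, by a narrow gap. The most abundant, Map2 and Dpysl3, both tied to the cytoskeleton, were at −0.06 ± 0.07 and −0.13 ± 0.12. The 2 lower members at an unadjusted edgeR p under 0.05, chosen after their values were seen, were the neurofilament gene Nefm (−0.44 ± 0.11) and the synaptic vesicle gene Syt1 (−0.82 ± 0.27).

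Glutamate and GABA receptor genes lay below 0 in 13 of 17 (median −0.07). At an unadjusted edgeR p under 0.05, 4 of 17 were lower and 0 higher, where over all genes 3.13% were lower and 2.77% higher. Without E47KO replicate 2, 11 of 17 lay below 0 (median −0.03), and 6 were lower and 1 was higher at that p. Over all 14315 genes tested without that library 777 were lower and 768 higher. Without E12wt replicate 3 the median of the list was −0.11. Their sum overlapped in the E12 line, at 945 to 1044 CPM in wild type and 858 to 957 CPM in knockout, but not in the E47 line, at 931 to 955 and 606 to 861 CPM, with E47KO replicate 2 the lowest. Gria2, an AMPA receptor subunit, was at 312, 236 and 348 CPM for E12wt, 255, 225 and 174 CPM for E12KO, 228, 218 and 282 CPM for E47wt and 115 to 225 CPM for E47KO. The groups overlapped in both lines (−0.44 ± 0.16). Grm5, a metabotropic receptor and the other abundant member, was at −0.03 ± 0.15, and at 0.10 without E47KO replicate 2. Grik3 is given above, and Grik1, another kainate receptor gene chosen after its values were seen, was at −0.57 ± 0.22, and at −0.38 without E12wt replicate 3.

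Oligodendrocyte lineage genes lay below 0 in 11 of 13 (median −0.21), with a median of −0.59 in the E12 line and −0.01 in the E47 line. E12wt replicate 3 held the highest sum, 1672 CPM against 1024 to 1585 CPM in the others, and without it 8 of 13 lay below 0 (median −0.04). Olig1 and Olig2, the lineage factors, were at −0.02 ± 0.11 and −0.09 ± 0.18, and at 0.06 and 0.06 without that library. Pdgfra, the receptor of oligodendrocyte precursors, was at 46.3, 44.8 and 93.3 CPM for E12wt and 34.8, 22.3 and 15.3 CPM for E12KO. In E47KO it was at 24.6, 55.8 and 28.3 CPM beside 41.6, 35.0 and 57.7 CPM for E47wt. It and the myelin lipid enzyme gene Ugt8a (−0.68 ± 0.22), both chosen after their values were seen, were the 2 lower ones at an unadjusted edgeR p under 0.05. Without E47KO replicate 2 there were 6 such genes, with 12 of 13 below 0 and a median of −0.29. Over all 14315 genes tested without that library 777 were lower at that p.

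Several matrix genes of mesenchyme looked shared by their fitted values but rested on 1 library in the E47 line. Col1a2, a chain of type I collagen chosen after its values were seen, was at 1.68, 2.79 and 1.62 CPM for E12wt and 0.0249, 0.0750 and 0.0475 CPM for E12KO. In the E47 line it was at 3.94, 0.0430 and 0.0852 CPM for wild type and 0, 0.0828 and 0.160 CPM for knockout. Thus E47wt replicate 1 alone was high in that line, and the fitted −3.88 ± 1.40 there did not pass. Postn was at 1.40 CPM in that library and at most 0.0430 CPM in the other E47 libraries, Col3a1 at 1.26 against at most 0.196 CPM, and Col1a1 at 6.92 against at most 1.69 CPM. In E12wt all 4 of these matrix genes, also chosen after their values were seen, lay above E12KO in every library. Of the mesenchyme and meninges list, 7 of 12 lay below 0 (median −0.05). The median was −0.16 without E47KO replicate 2 (8 of 13 below), −0.11 without E12wt replicate 3 (10 of 13) and −0.18 with the Y-linked covariate (8 of 12). The abundant members Igfbp2 and Prrx1 were at 0.31 ± 0.15 and −0.05 ± 0.13. The levels of endothelium and microglia genes are given above, and the part of mesenchymal cells in these values was not tested.

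Other matrix genes went both ways, 16 of 29 above 0 and 13 below. Over all genes 2.77% were higher and 3.13% lower at an unadjusted edgeR p under 0.05. Of the 29, 4 were higher at that p, namely Lamb2, the basement membrane genes Col4a1 (0.39 ± 0.10) and Lama5 (0.37 ± 0.10) and the cartilage collagen gene Col9a3 (0.35 ± 0.15, and 0.23 without E47KO replicate 2). The 3 lower ones were Has2, which makes hyaluronan (−0.80 ± 0.22), the proteoglycan gene Vcan (−0.25 ± 0.09) and Col6a1 (−0.79 ± 0.33). Apart from Lamb2 these were chosen after their values were seen. The most abundant members, Tnc and Ncan, were at 0.17 ± 0.21 and 0.01 ± 0.11, and at 0.36 and −0.08 without E47KO replicate 2.

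Immediate early genes, which answer growth factors and other stimuli within minutes, lay above 0 in 19 of 22 (median 0.22). This count was the same without E47KO replicate 2, with a median of 0.19. With all libraries 6 of 22 were higher at an unadjusted edgeR p under 0.05 (27.3%), none lower. Over all genes 2.77% were higher and 3.13% lower at that p. Klf6 was at 0.19 ± 0.13, with 0.44 ± 0.15 in E12 and −0.06 ± 0.15 in E47, and Jun at 0.11 ± 0.12. Fosb, chosen after its values were seen, was at 18.6, 23.8 and 15.2 CPM for E12wt and 32.1, 44.7 and 49.8 CPM for E12KO, but at 14.6, 27.5 and 15.9 CPM for E47wt and 20.7, 25.8 and 17.3 CPM for E47KO. Its separation was in the E12 line, at 1.13 ± 0.26 against 0.13 ± 0.26 in E47, and the 95% interval of the difference was −1.81 to −0.19, which was not called. Junb (0.82 ± 0.25), Ier2 (0.38 ± 0.17), Egr3 (0.28 ± 0.12), Nr4a1 (0.23 ± 0.10, and 0.13 without E47KO replicate 2) and Klf2 (0.37 ± 0.17) were the others, also chosen after their values were seen.

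Sonic hedgehog pathway genes lay above 0 in 8 of 10 (median 0.12). Smo, the signal transducer of the pathway, was at 133, 137 and 121 CPM for E12wt, 136, 136 and 147 CPM for E12KO, 135, 137 and 134 CPM for E47wt and 151, 162 and 145 CPM for E47KO, a small shift that overlapped in the E12 line (0.14 ± 0.05). Ptch1, the receptor, was at 0.02 ± 0.11 and at −0.09 without E47KO replicate 2. Gli2, a transcription factor at the end of the pathway, was chosen after its values were seen and was at 0.45 ± 0.15, and Gas1 is given above.

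Ribosomal protein genes lay above 0 in 29 of 31, and 26 of 31 were above 0 in both lines, where 25.6% of all genes were. The shift was small, a median of 0.10, and it was 0.10 without E47KO replicate 2 too. Their sum was 20041 to 21704 CPM for E12wt, 20236 to 23532 CPM for E12KO, 21848 to 22474 CPM for E47wt and 22744 to 24320 CPM for E47KO, so the groups were apart in the E47 line only. The abundant Rpl4 and Rpl7 were at 0.03 ± 0.05 and −0.04 ± 0.05, and Rplp1 and Rps15, chosen after their values were seen, at 0.33 ± 0.13 and 0.21 ± 0.08. Several ribosomal protein genes have processed copies elsewhere in the genome, so their counts are uncertain. Oxidative phosphorylation genes lay above 0 in 25 of 29, with a median of 0.05, and their abundant members Atp5a1 and Atp5b, subunits of ATP synthase, were at 0.08 ± 0.05 and 0.04 ± 0.07.

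**Figure D5:**
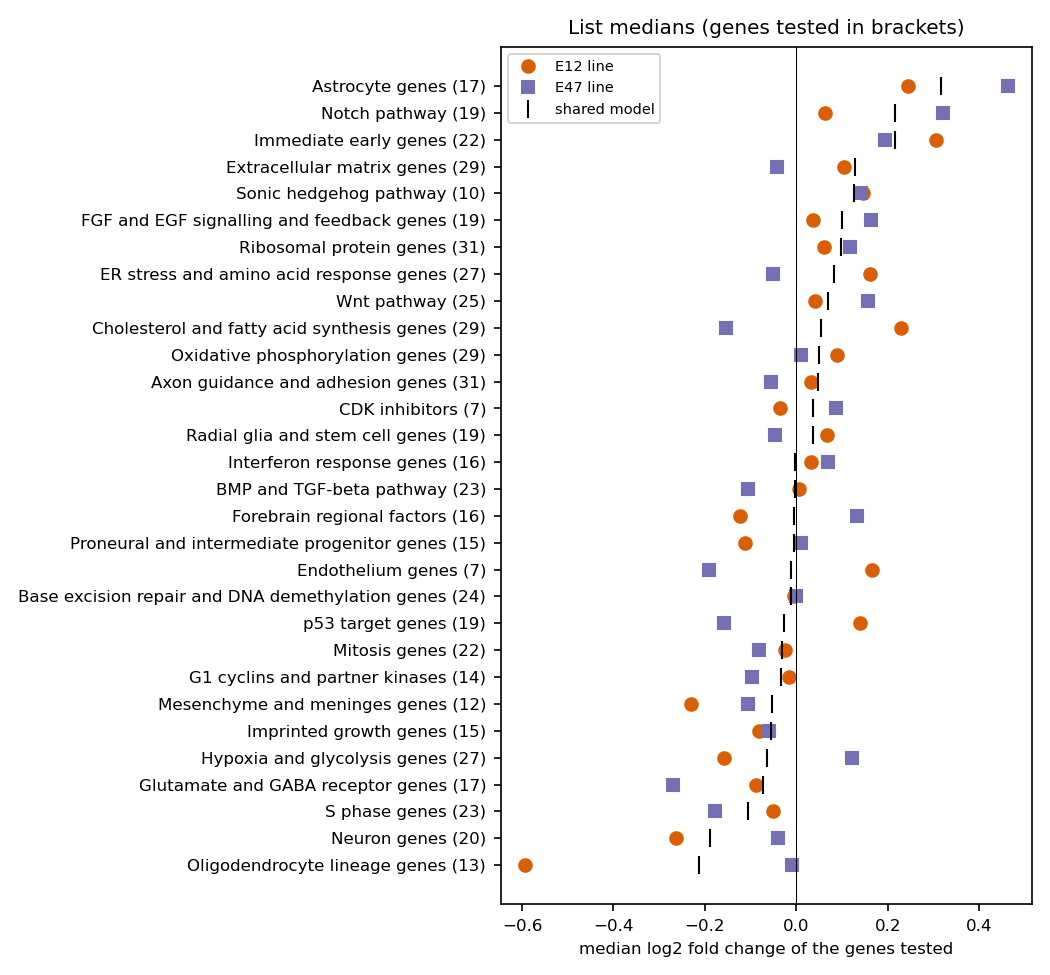
Median log2 fold change (x axis) of the genes tested in each list with 5 or more of them (y axis, number tested in brackets), in the E12 line (circles), in the E47 line (squares) and in the shared model (bars). Astrocyte, Notch and immediate early genes have the highest shared medians and oligodendrocyte and neuron genes the lowest; several lists, such as cholesterol and p53 target genes, lie on opposite sides of 0 in the lines.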

How the data were processed

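RNA of 12 libraries was measured by stranded mRNA sequencing. Per the submitters' processing notes, STAR 2.5, DESeq2 and DESeq were used with genome build mm9; no source used here names the annotation. For each library the authors deposited read counts of whole numbers per gene, for both strands, the sense strand and the opposite strand, and the opposite strand, with 97.1 to 97.2% of strand-assigned reads, was used. Rows that name no gene were left out. Opposite-strand reads in no gene or ambiguous between genes were 6.87 to 9.00% of these and the gene reads together. Other such rows, as for reads mapped to several places, are not in that share. The authors also deposited a table per line with normalized signal, log2 fold changes and adjusted p-values, quoted only where named. IDs were matched to GENCODE M21 (GRCm38), which named and placed 32897 of 37620; the order of genes came from it, and coordinates only from RefSeq promoters (GRCm38.p6), without those of chromosome 18.

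Counts were tested with the quasi-likelihood F test of edgeR 4.0.16 in R 4.3.3 (TMM, filterByExpr on the 4 groups, a prior count of 0.125), with Benjamini-Hochberg (BH) adjustment of the two-sided p over all autosomal genes tested and calls under 0.05. The shared effect was fitted as line plus knockout; effects of each line and their difference came from a fit of the 4 groups over all libraries. A standard error is the fold change over the root of F, and CPM are TMM-scaled. A floor of 3 reads was 0.0528 to 0.0869 CPM, which covers counting error only. No 2 libraries of a group agreed within sampling noise (chi-square over its degrees of freedom 10.5 or more). The fit was tested on simulated data.

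The comparison, the 33 lists (656 genes, 653 found, 585 tested) and the rule for naming genes were chosen with earlier results of these data known. That rule covers Tcf3 and its relatives Tcf4 and Tcf12, Cdkn1c, every called gene, the 10 higher and 10 lower genes with the smallest p among those not called with at least 1 CPM on average and no overlap inside either line, and for each list its called members or else the 2 with the highest mean CPM. Some genes it names are not reported here, and others were chosen after their values were seen, as stated. Alternatives were other normalizations, filters and strands, DESeq2 1.42.0, a replicate block, a covariate for Y-linked transcripts, and leaving out libraries. Leaving out E47wt replicates 1 and 3 and testing all genes of the files were chosen after seeing the data.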

Additional observations from a re-analysis of the deposited data

How the results depend on the processing

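The shared test called 5 genes, all of the same sign in both lines, and both counts were 50 with DESeq2 (35 of them without overlap inside either line), 2 without E47wt replicates 1 and 3, and 2 to 7 when 1 library was left out; requiring an unadjusted p under 0.05 in each line's own libraries gave 66 genes alike. In the fit of all libraries the E12 effect called 2 genes, against 10 with DESeq2 and 5 with its own 6 libraries. It called 4 without E12wt replicate 3 and E47KO replicate 2, and 2 to 6 with 1 library left out. The E47 effect called 2, against 13 with DESeq2 and 4 without those 2 libraries. Near Tcf3, 2 genes were called within 100 places and 0 by edgeR within 50; the count was 1 with the Y-linked covariate, without E12wt replicate 3 and E47KO replicate 2, and without E47wt replicates 1 and 3, and 1 to 2 with 1 library left out. Where libraries were left out, fewer samples entered; the cause of the other changes was not tested.

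A replicate block was tried because the groups share replicate numbers. Same-numbered libraries deviated together at correlations of −0.01 to 0.09 in E12 and 0.10 to 0.45 in E47, so the numbers were not taken to pair the samples. With the block 2 genes were called in the shared test, 2 alike in both lines, and 1 near Tcf3.

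Of 2201 values of named genes under alternatives, 2099 kept their direction and call, 32 lost a call, 28 gained one and 42 turned sign, in 13 genes that were not called. Of 792 list medians, 13 moved by more than the spread between libraries, and 109, in 23 of 33 lists, turned sign. The shared log2 fold changes of genes that turned were, without E12wt replicate 3 and E47KO replicate 2, Tcf4 −0.046, Id3 −0.054, Pcna 0.041, Sparcl1 −0.069, Olig2 0.12, Cdkn1b −0.040, Grm5 0.030, Olig1 0.026, Ptch1 −0.12, Ncan −0.10; with the Y-linked covariate, Cdkn1b −0.032, Olig1 0.046, Ptch1 −0.057, Ncan −0.026; and without E47wt replicates 1 and 3, Cdkn1b −0.024, Grm5 0.0014, Olig1 0.054, Ptch1 −0.049, Ncan −0.019. With 1 library left out the ranges were Tcf4 −0.010 to 0.064, Cdkn1c −0.41 to 0.071, Pcna −0.19 to 0.032, Olig2 −0.21 to 0.058, Cdkn1b −0.035 to 0.091, Cdkn1a −0.015 to 0.18, Prrx1 −0.16 to 0.0041, Grm5 −0.10 to 0.10, Olig1 −0.086 to 0.059, Ptch1 −0.087 to 0.087, Ncan −0.080 to 0.066. Depth limits the genes under about 1 CPM, such as the wild-type levels of Gm9855 and 2610203C22Rik.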
